A study of Mus musculus with 24 samples.

Results

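Erythroid microRNAs (miRNAs) in mouse liver, hepatocytes and extracellular vesicles are described here through 5 of the 1915 mature miRNA entries of the study, miR-451a, miR-144-3p, miR-144-5p, miR-486a-5p and miR-486b-5p. The 5 hairpin entries that belong to them, mir-451a, mir-451b, mir-144, mir-486 and mir-3107, were taken from 1186 hairpin entries. The rule that names the members uses no measured value, although it was set with earlier results of these data known. All 5 mature entries had at least 1 count in the control liver column and all 5 hairpins had counts in the liver and control serum columns.

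Red cell precursors make miR-144 and miR-451a from a single primary transcript that the transcription factor GATA1 switches on, and both miRNAs accumulate as the cells mature. miR-451a is unusual in that its hairpin is too short for Dicer and is cut by Argonaute 2 instead, so that the mature strand runs into the loop. miR-486 lies within Ank1, the gene of the red cell membrane skeleton protein ankyrin, and is abundant in red cells and in striated muscle. In liver these miRNAs serve as markers of blood, while miR-122 marks hepatocytes.

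The sequences below, from RefSeq (GRCm38.p6), are those of the chromosome 11 cluster and include both mir-451 hairpins, which lie on opposite strands. Capitals mark the seed, bases 2 to 8, in the mature miRNAs, and the mature strand in the hairpins.
mmu-miR-451a: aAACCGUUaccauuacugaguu
mmu-miR-144-3p: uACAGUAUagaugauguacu
mmu-miR-144-5p: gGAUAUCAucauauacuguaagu
mmu-mir-144: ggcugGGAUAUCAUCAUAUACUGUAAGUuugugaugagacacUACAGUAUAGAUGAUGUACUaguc
mmu-mir-451a: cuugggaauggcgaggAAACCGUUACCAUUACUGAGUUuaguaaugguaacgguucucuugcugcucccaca
mmu-mir-451b: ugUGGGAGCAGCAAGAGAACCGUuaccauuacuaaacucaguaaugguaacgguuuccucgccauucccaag

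RefSeq sequences were matched for 3 of the 5 mature members, and these have 3 different seeds. On chromosome 11 of GRCm38, mir-144 spans 78073005 to 78073070 and mir-451a 78073170 to 78073241, both on the plus strand and 99 bases apart, with no overlap of another annotated gene other than mir-451b. The mir-451b hairpin is the exact reverse complement of mir-451a at the same position. Read in the same orientation, both hairpins share a stretch of at most 16 bases, and mature miR-451a has at least 4 mismatches on mir-451b. On chromosome 8, mir-486 (23142555 to 23142682, plus strand) extends 18 bases before and 20 bases after mir-3107 (23142573 to 23142662, minus strand). Both lie in an intron of Ank1 and overlap the antisense gene Gm15816. miR-486a-5p belongs to mir-486 and miR-486b-5p to mir-3107.

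The study sequenced small RNA from 4 materials on 2 Ion Torrent instruments, giving 24 samples. Each material had 3 treatments: none (control), acetaminophen, or acetaminophen together with G-CSF. Acetaminophen is a painkiller whose overdose injures the liver, while G-CSF (granulocyte colony-stimulating factor) drives the production and release of neutrophils. Serum exosomes and liver came from mice, which received acetaminophen at 500 mg/kg and, in the combined groups, G-CSF at 100 µg/kg. Primary hepatocytes in culture, and exosomes from these cultures, received 20 mM acetaminophen and 1 µg/ml G-CSF. The labels give no strain, age or number of mice or cultures, and the tables hold 12 columns, 1 per condition, in which the authors had already combined both instruments. There are therefore no replicates within a condition, a comparison of 2 columns compares those libraries and not the conditions, and every interval, floor or bound below reflects only the error of counting. For the treated serum columns the labels disagree: the treatment field, followed here, exchanges G-CSF relative to the sample titles and column names.

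Depth limits what can be said about each material. Mature counts per column ran from 19695 to 49330 in liver and from 4450 to 26741 in hepatocytes. Control serum exosomes had 6515 counts, but the treated serum columns had only 436 and 692 and hepatocyte exosomes 47 to 335. Without miR-30c-5p and miR-122-5p (31 counts), control serum exosomes kept 2804 counts, while the treated serum columns lost none. Shares and column-total folds of control serum exosomes therefore depend strongly on how much miR-30c-5p that column held. The acetaminophen liver column stands apart from the other liver columns, with 5.65 hairpin counts per mature count against 26.5 in control and 25.1 with G-CSF added. For the members, liver folds and ratios that rest on it are given below in both tables. The G-CSF column against control gives the comparison without counts of the acetaminophen column, although the main scaling used every liver column. Values of other miRNAs are from mature counts alone.

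The mature strands were found almost wholly in liver and in control serum exosomes. miR-451a had 87 counts in control liver (0.176% of mature counts), 1163 in acetaminophen liver (5.91%) and 458 in liver given G-CSF as well (1.05%). By abundance it ranked 70 in control liver, 2 in acetaminophen liver and 34 where G-CSF was added. In control serum exosomes it had 162 counts (2.49%, rank 6).
The passenger and guide strands of miR-144 were scarce throughout. miR-144-3p, the strand that is usually the guide, had 1, 31 and 6 counts in control, acetaminophen and acetaminophen plus G-CSF liver, and 7 in control serum exosomes. miR-144-5p had 1, 27 and 9 counts in the same liver columns and 8 in control serum exosomes. Both strands had most counts in acetaminophen liver, like miR-451a.
miR-486a-5p and miR-486b-5p had equal counts in every column, so that they are 1 signal and are summed below. Whether reads that fit both were divided or counted in full in each is not known. In the second case their sums, shares and ratios would count reads more than once, and the intervals would be too narrow. Each had 7, 32.5 and 11 counts in control, acetaminophen and acetaminophen plus G-CSF liver. In control serum exosomes each had 228.7 counts (3.51%, rank 3), above miR-451a. The opposite strands miR-486a-3p and miR-486b-3p never exceeded 1 count, and miR-451b had 0 counts in all 12 columns.

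**Figure D1:**
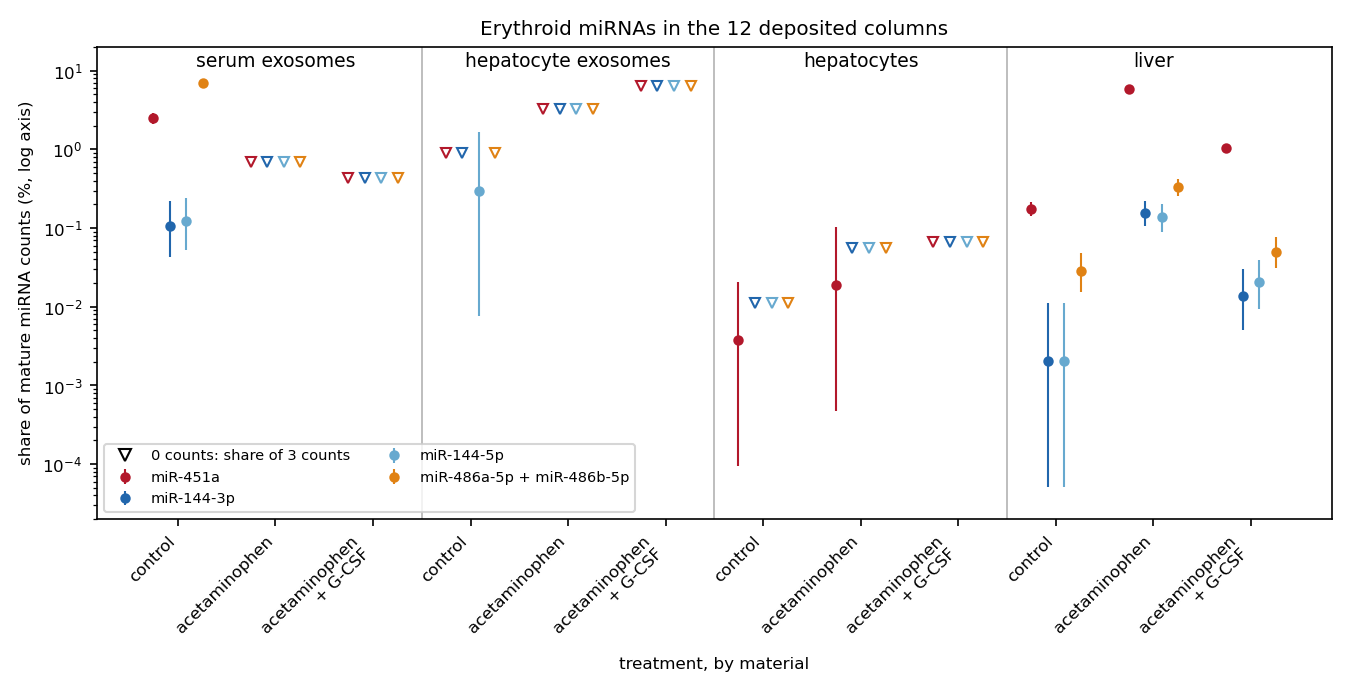
Share of mature miRNA counts (percent, log axis) held by each erythroid miRNA in the 12 columns, grouped by material, with exact 95% binomial intervals. Open triangles mark columns with 0 counts, drawn at the share of 3 counts. Liver and control serum exosomes hold nearly all counts, with miR-451a at 5.91% in acetaminophen liver and the summed miR-486-5p entries at 7.02% in control serum exosomes.

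In liver, all 5 members were higher in the acetaminophen column than in control. Values were scaled by trimmed mean of M values (TMM) factors, and a miRNA was called when it had at least 10 counts in 1 of the 2 columns, a ratio of at least 2 and an exact 95% interval that excluded equality. By this rule 22.5% of 160 miRNAs tested were called higher. Except for miR-451a, the members reached 10 counts in the acetaminophen column only, so they could be called higher but not lower. miR-451a was 37.4-fold higher (95% interval 30.1 to 47.1), a log2 fold of 5.23 that ranked 4 among all miRNAs tested. miR-144-3p was 86.8-fold higher (14.5 to 3537) and miR-144-5p 75.6-fold higher (12.5 to 3094), intervals that are wide because control liver had 1 count of each. The summed miR-486-5p entries were 13.0-fold higher (7.22 to 25.1). The median log2 fold was 5.23 over the 5 members and -0.25 over all 160 miRNAs.

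The hairpin table, which has many more counts, gave the same direction with smaller folds. mir-451a had 1773, 5369 and 9954 counts in control, acetaminophen and acetaminophen plus G-CSF liver, and mir-451b had 1744, 5254 and 9832. As a share of the hairpin column their sum was 0.269%, 9.54% and 1.81%. Whether reads that fit both entries were divided or counted in full in each is not known. In the second case the sums, their shares and the hairpin ratios to mir-451 would count such reads more than once, and the intervals would be too narrow. mir-144 had 157.7, 291.5 and 632.5 counts, which are 0.0121%, 0.262% and 0.0577% of the columns. mir-486 had 234, 192.3 and 302.8 counts and mir-3107 had 243, 192.3 and 304.8. The question of reads that fit both entries applies to their sum too. Raw hairpin counts do not follow the shares because the acetaminophen column held the fewest hairpin counts of the liver columns. After scaling, the mir-451 entries together were 30.9-fold higher with acetaminophen than in control (29.7 to 32.1), mir-144 was 18.9-fold higher (15.5 to 23.1), and mir-486 with mir-3107 was 8.24-fold higher (7.18 to 9.44).

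With G-CSF added, all 5 members were lower than with acetaminophen alone, where 13% of 162 miRNAs tested were called lower. Both miR-144 strands reached 10 counts in the acetaminophen column only, so they could be called lower but not higher. miR-451a was 6.96-fold lower (95% interval 6.24 to 7.77), miR-144-3p 14.2-fold lower (5.82 to 41.5) and miR-144-5p 8.22-fold lower (3.75 to 19.9). The summed miR-486-5p entries were 8.09-fold lower (4.92 to 13.8). The hairpins were 4.94-fold lower for mir-451 (4.82 to 5.06), 4.24-fold lower for mir-144 (3.68 to 4.88) and 5.82-fold lower for mir-486 with mir-3107 (5.11 to 6.63). This comparison shares the acetaminophen column with the one above, so the opposite directions are not independent of each other. Taken relative to miR-122-5p, a scaling chosen after seeing the data, the log2 difference of miR-451a shrank from -2.80 to -0.83, under the 2-fold limit, and that of miR-144-5p from -3.04 to -1.07 with an interval that includes equality. The hepatocyte miRNA miR-122-5p itself was 3.91-fold lower in this comparison (7902 against 5543 counts).

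Liver given acetaminophen and G-CSF still had more miR-451a than control liver. It was 5.38-fold higher (4.27 to 6.85), where 15.8% of 171 miRNAs tested were called higher. miR-144-3p and miR-144-5p had too few counts to be tested singly, and their sum, 15 against 2 counts, was 7.66-fold higher (1.78 to 69.1). The summed miR-486-5p entries, 22 against 14 counts, were not called (1.61-fold, 0.786 to 3.39). Hairpins gave 6.25-fold for mir-451 (6.03 to 6.48) and 4.45-fold for mir-144 (3.74 to 5.34). For mir-486 with mir-3107 the fold was 1.42 (1.25 to 1.60), which excludes equality but misses the 2-fold limit. The cluster on chromosome 11 was thus called higher in a comparison that used the acetaminophen column for scaling only, and miR-486 was not. This contrast of calls depended on the scaling. Scaled to miR-122-5p, itself 2.06-fold lower here, miR-486a-5p and miR-486b-5p were called higher too, by 1.73 on the log2 scale (interval of the fold 1.17 to 10.1). The ratio of miR-486 to miR-451a, given below, does not depend on scaling.

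**Figure D2:**
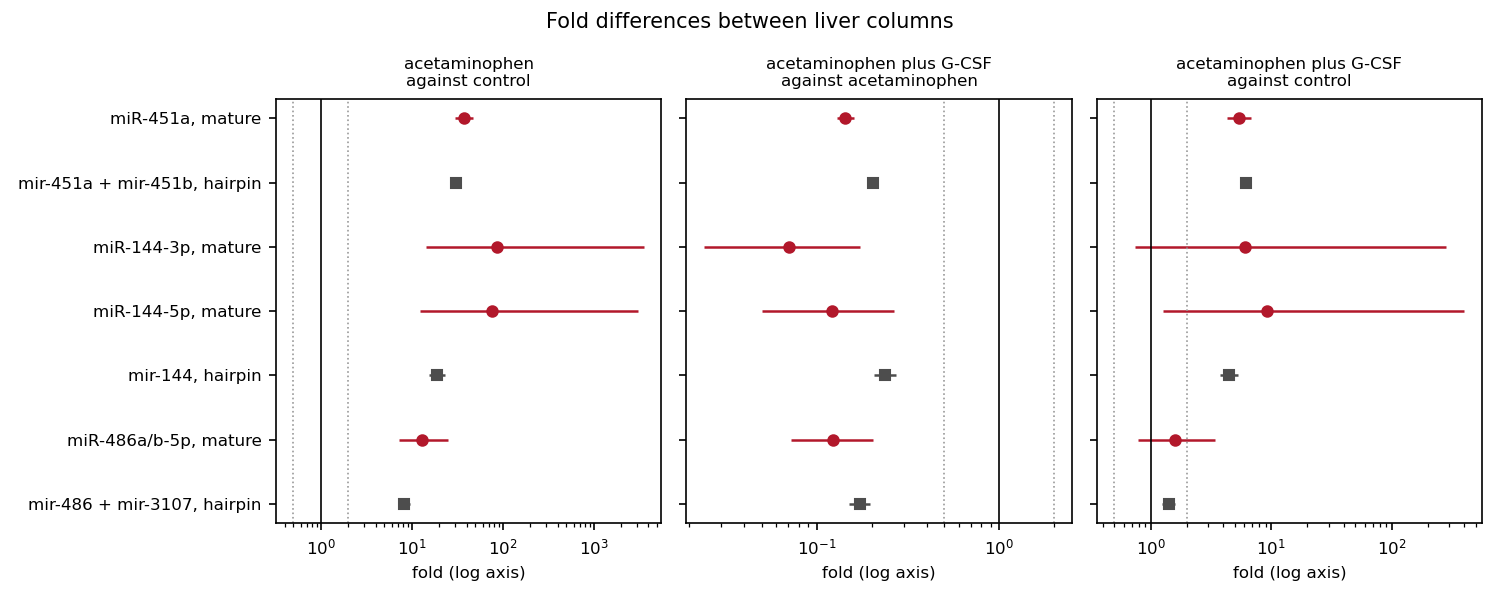
Fold differences between liver columns (log axis) with exact 95% intervals, for mature entries (red circles) and hairpins (grey squares). The solid line marks equality and dotted lines the 2-fold limits. All entries lie above the upper limit for acetaminophen against control and below the lower one when G-CSF was added, while miR-486 against control is 1.61-fold in mature and 1.42-fold in hairpin counts.

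Scaling moved all liver folds together. Across the planned scalings of acetaminophen against control, every log2 fold shifted by -0.24 to 0.26, and the share of calls that were higher, 45% of 36 higher and 44 lower, ranged from 31.7% to 56.8%. With G-CSF added against acetaminophen the shift was -0.24 to 0.30, and 57.1% of calls were higher, with a range of 40.7% to 74.6%. Against control, 55.1% of the calls in the G-CSF column were higher and column totals gave 65.9%. All 5 members stayed called in the same direction under each planned scaling for both comparisons with the acetaminophen column, and miR-451a for the third. Scaling to miR-122-5p lies outside these ranges: it left 3 of 5 members called lower when G-CSF was added, as given above. For acetaminophen against control it kept all 5 higher, with a log2 fold of 4.30 for miR-451a.

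Lists of other cell-type miRNAs show how the rest of the liver libraries behaved. The other red cell list holds miRNAs that are abundant in red cells but also made widely. For acetaminophen against control 6 of its 10 members were tested, of which 0 were higher and 0 lower. Of all 160 miRNAs tested, 36 were higher and 44 lower. The median log2 fold of the list was -0.14. miR-16-5p, the reference miRNA that is often set against miR-451a in plasma, had 838 counts in control and 275.3 with acetaminophen, 0.920-fold (0.800 to 1.06). When G-CSF was added, miR-92a-3p was 2.94-fold higher than with acetaminophen alone (1.34 to 7.64), and the other 5 were not called. The summed share of the list was 2.33% to 2.77% in the 3 liver columns. miR-451a thus stood at 0.104 counts per count of miR-16-5p in control liver (0.0823 to 0.130), 4.22 with acetaminophen (3.70 to 4.84) and 0.815 with G-CSF added (0.719 to 0.923). In control serum exosomes this ratio was 0.830 (0.670 to 1.03).

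Of the leukocyte and endothelial lists, miR-142a-3p and miR-126a-5p were called in the same directions as the members in both comparisons with the acetaminophen column. Of 6 leukocyte miRNAs tested, 2 were higher and 1 lower with acetaminophen, where 36 of all 160 were higher and 44 lower. miR-142a-3p, made throughout the blood lineages, had 15, 53 and 13 counts in control, acetaminophen and acetaminophen plus G-CSF liver, 9.89-fold higher with acetaminophen (5.49 to 18.9) and 11.2-fold lower when G-CSF was added (6.01 to 22.3). The myeloid miRNA miR-223-3p had 29, 50.5 and 141.8 counts. It was 4.88-fold higher with acetaminophen (3.03 to 7.98), and in the G-CSF column it stood at 1.03-fold of the acetaminophen column (0.738 to 1.44), which was not called. miR-342-3p, found in lymphocytes, was 3.63-fold lower with acetaminophen (2.56 to 5.30). The leukocyte list as a whole held 0.990%, 0.904% and 0.899% of the 3 liver columns. The endothelial miR-126a-5p was 3.99-fold higher with acetaminophen (2.85 to 5.63) and 5.54-fold lower when G-CSF was added (3.80 to 8.18). With acetaminophen miR-126a-3p was 0.826-fold (0.737 to 0.924) and not called.

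Hepatocyte miRNAs did not move as a group. The 5 members of that list held 27.3% of control, 42.2% of acetaminophen and 14.9% of acetaminophen plus G-CSF liver. Most of these counts were miR-122-5p, with 11657.2 in control and 7902 with acetaminophen, 1.90-fold (1.84 to 1.95) and under the 2-fold limit. miR-192-5p stood at 0.734-fold (0.611 to 0.878) and was not called either. miR-122-3p was 11.7-fold higher (4.67 to 34.8) and miR-802-5p 5.83-fold higher (2.82 to 12.7), while miR-194-5p was 2.08-fold lower (1.80 to 2.42). When G-CSF was added, 3 of the 5 were lower than with acetaminophen, where 13% of 162 miRNAs tested were called lower. Striated muscle miRNAs, which matter because muscle also makes miR-486, had at most 2.33 summed counts in a liver column (0.0119%). In control serum exosomes they had 2 counts (0.0307%). The part of these cell types and of blood content in the liver result was not tested, and in bulk tissue more cells of a type and more RNA per cell cannot be told apart.

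**Figure D3:**
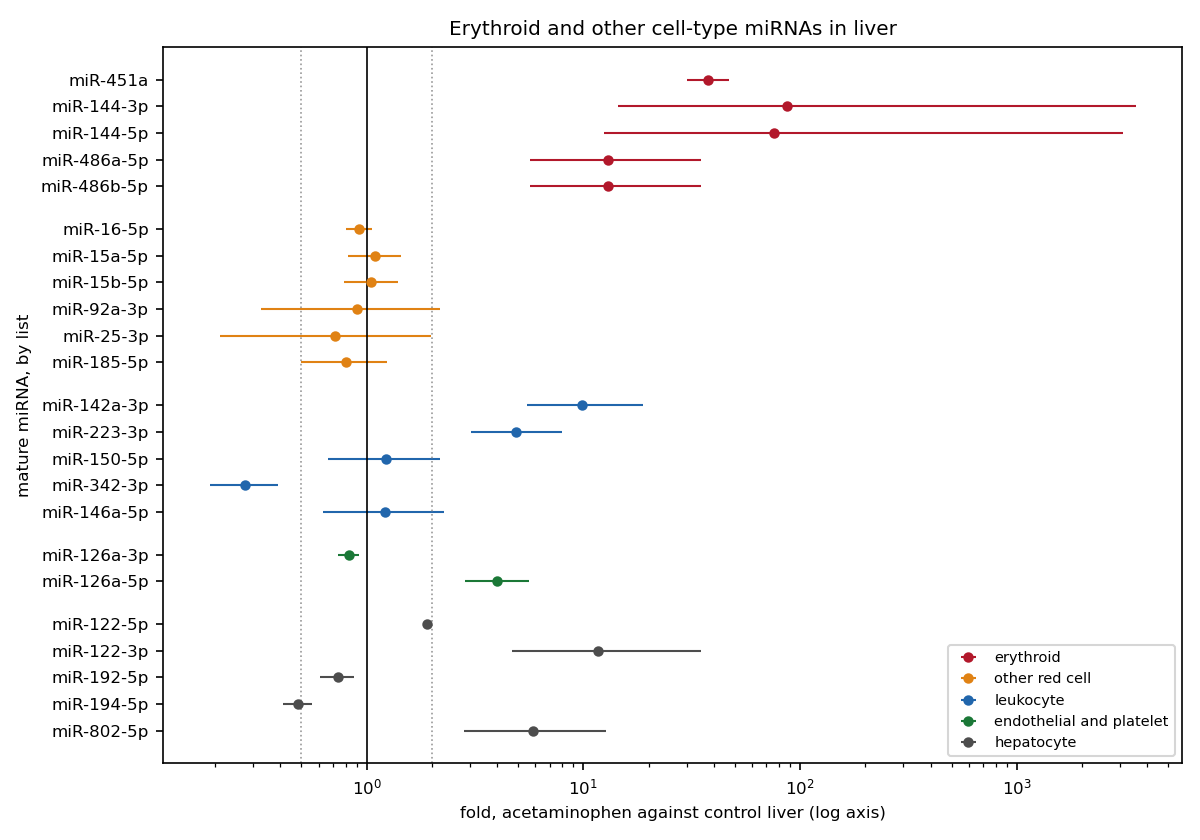
Fold of acetaminophen against control liver (log axis) with exact 95% intervals, for the 5 erythroid miRNAs and for the tested members of 4 other lists. miR-155-5p, with 0 counts in the acetaminophen column, is not drawn. The erythroid miRNAs lie at 13.0-fold and above, while the 6 other red cell miRNAs lie between 0.718-fold and 1.09-fold.

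Within the cluster, miR-451a far exceeded miR-144 in every column that held both. Counted per 100 miR-451a reads, both strands of miR-144 together stood at 2.30 in control liver (0.274 to 8.56), 4.99 with acetaminophen (3.76 to 6.49), 3.28 with G-CSF added (1.82 to 5.46) and 9.26 in control serum exosomes (5.07 to 15.7). These are ratios of counts, not of molecules, and only their change between columns can be compared. The ratio of miR-144-3p to miR-144-5p counts was 1.15 in acetaminophen liver (0.663 to 1.999), 0.667 with G-CSF added (0.195 to 2.10) and 0.875 in control serum exosomes (0.270 to 2.76). These intervals overlap widely, and a change of this ratio between columns was not tested.

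The mature and hairpin tables gave opposite directions for the ratio of miR-144 to miR-451a in liver. In mature counts it was 2.17 times control with acetaminophen (0.557 to 18.6), an interval that includes equality. In hairpin counts it was 0.612 times control (0.501 to 0.750), since mir-144 stood at 4.48% of mir-451 in control and 2.74% with acetaminophen. The hairpin value lies inside the mature interval, so control liver, with 2 mature miR-144 counts, cannot tell them apart. With G-CSF added, the ratio was 0.711 times control in hairpins (0.594 to 0.855) and 1.43 times in mature counts (0.322 to 13.1).

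Relative to miR-451a, miR-486 was lower in both treated liver columns than in control. Summed miR-486-5p stood at 16.1% of miR-451a in control liver (8.45% to 28.5%), 5.59% with acetaminophen (4.29% to 7.18%) and 4.80% with G-CSF added (2.98% to 7.36%). The ratio was 2.88-fold lower with acetaminophen than in control (1.43 to 5.44) and, in the G-CSF column, 3.35-fold lower (1.52 to 7.14). Hairpins gave 3.74-fold (3.25 to 4.31) and 4.41-fold (3.89 to 5.01). Between the treated liver columns the mature ratio was 0.860 (0.498 to 1.43), which was not a detectable difference, and the hairpin ratio 0.848 (0.743 to 0.968). No scaling enters these ratios, as both miRNAs come from the same column.

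**Figure D4:**
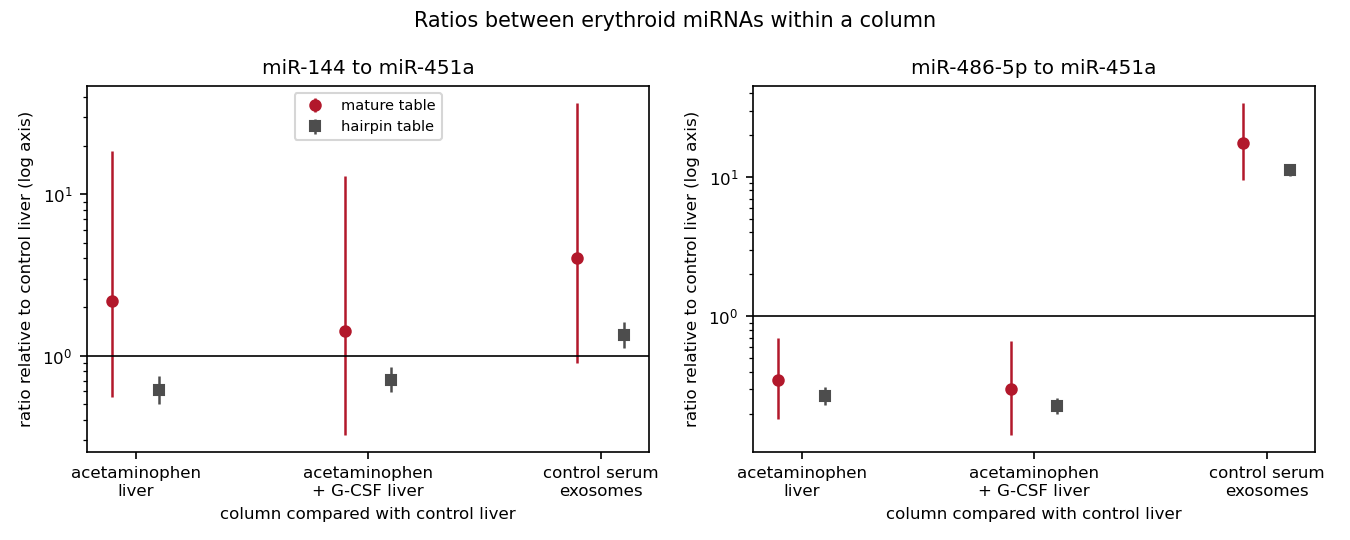
Ratio of miR-144 to miR-451a (left) and of miR-486-5p to miR-451a (right) in 3 columns, relative to control liver (log axis), with exact conditional 95% intervals, in mature (red circles) and hairpin counts (grey squares). The right panel shows the miR-486 ratio at 0.347 in acetaminophen liver and 17.5 in control serum exosomes; on the left, mature intervals for liver include 1 while hairpins lie below it.

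Control serum exosomes carried the erythroid miRNAs in another proportion than liver. The 5 members made up 9.74% of its mature counts (9.03% to 10.5%), against 0.209% in control liver (0.171% to 0.253%). By column totals miR-451a was 14.1-fold higher than in control liver (10.8 to 18.5), where 7.1% of 155 miRNAs tested were called higher. These shares and folds depend on the control serum total, most of which was miR-30c-5p. The miR-144 strands together were 56.8-fold higher (13.2 to 512), and the summed miR-486-5p entries 247-fold higher (146 to 456). Singly, the miR-144 strands had too few counts to be tested. Their sum and each miR-486-5p entry reached 10 counts in the serum column only, so they could be called higher but not lower. Hairpins gave 18.7-fold for mir-451, 25.2-fold for mir-144 and 210-fold for mir-486 with mir-3107. miR-486-5p therefore exceeded miR-451a in control serum exosomes, with 2.82 counts per count of miR-451a (2.36 to 3.40). This ratio was 17.5 times that of control liver (9.54 to 34.2), 50.5 times that of acetaminophen liver (36.8 to 69.6) and 58.7 times that of liver with G-CSF added (36.5 to 97.7). Hairpins gave 11.2, 42.1 and 49.6 times. Serum and liver differ in material, depth and content of all other RNA, which cannot be told apart from a difference in these miRNAs.

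In both treated serum columns all 5 members had 0 mature counts. A count of 0 allows a share of up to 0.688% with acetaminophen and 0.434% with G-CSF added. At the control share, 10.8 and 17.2 counts of miR-451a and 30.6 and 48.6 of the summed miR-486-5p entries would have been found, but only 1.00 and 1.59 of miR-144. With each 0 set to the floor of 3 counts, miR-451a was 3.61-fold lower with acetaminophen and 5.74-fold lower in the other treated column. By the exact interval, the limit closest to equality was 2.91-fold for the first and 4.61-fold for the second. On the same floor, summed miR-486-5p was 10.2-fold and 16.2-fold lower, with exact limits closest to equality of 8.26-fold and 13.1-fold. Of 40 miRNAs tested with acetaminophen 20% were called lower, and 18.2% of 44 with G-CSF added. miR-451a and the miR-486-5p entries reached 10 counts in the control column only, so they could be called lower but not higher. The share of calls that were higher fell from 57.9% to 40.7% and from 65.2% to 42.9% when miR-122-5p and miR-30c-5p were left out of the scaling. That scaling also moved the log2 values of miR-451a at the floor from -1.85 to -3.07 with acetaminophen and from -2.52 to -3.74 in the other column. For miR-144-3p and miR-144-5p no difference was detectable at this depth. The marker miRNAs of other cell types were nearly absent from these columns as well. The other red cell list held 4.51% of control serum exosomes, 0 counts with acetaminophen and 0.5 counts in the other column. On the same floor miR-16-5p was 4.35-fold and 6.91-fold lower, with exact limits closest to equality of 3.51-fold and 4.39-fold. The leukocyte list went from 1.04% to 1 count in each treated column, and the hepatocyte list from 0.499% to 0 and 1 counts. Their part in the result was not tested. Exchanging the conflicting serum labels exchanges these values and leaves the direction.

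Hairpin counts of the members were low in treated serum too. The column with G-CSF added, with 3 counts for the mir-451 entries where 202.5 would stand at the control share, was 67.5-fold lower after scaling (23.1 to 328). In the acetaminophen column mir-451a, mir-451b and mir-144 had 0 counts, with 23.2 for the mir-451 entries at the control share. mir-3107 had 0 counts in both columns. mir-486 had 10 counts with acetaminophen (2.17% of the hairpin column, rank 9) and 4 with G-CSF added, where it was 38.6-fold lower than in control (15.1 to 142). It was 0.566-fold of control with acetaminophen (0.271 to 1.04), which includes equality, so that mir-486 was not called in that column.

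mir-486 without mir-3107 was also seen in all 3 columns of hepatocyte exosomes. There mir-486 had 17.5 counts in control (1.92%, rank 4), 3 with acetaminophen and 5 where G-CSF was added (2.89%), and mir-3107 had 0 in each. In control serum and liver the same entries were almost equal, with 6957 and 6950 counts in control serum exosomes and 234 and 243 in control liver. Mature miR-486a-5p and miR-486b-5p had 0 counts in all 5 columns where mir-486 appeared alone. Of the 5 mature members only miR-144-5p was found in hepatocyte exosomes, with 1 count in control, and a count of 0 there allows shares from 0.896% to 6.38%.

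Hepatocytes in culture held almost none of these miRNAs. miR-451a had 1, 1 and 0 counts in the control, acetaminophen and acetaminophen plus G-CSF columns, and the other 4 members had 0. Hairpin counts were also low, with 12, 11 and 3 for mir-451a and mir-451b together, 2, 4 and 1 for mir-144, and at most 2 for mir-486 and for mir-3107. The hepatocyte hairpin columns differed in depth, and after scaling the mir-451 sum was 3.50-fold higher with acetaminophen than in control (1.40 to 8.68). Each mir-451 entry alone had fewer than 10 counts, and its interval included equality (0.894 to 13.4). The hepatocyte marker list held 13.9% to 26.5% of the same columns.

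Liver was then compared with hepatocytes by edgeR's quasi-likelihood test, the 3 treatments serving as the samples of each material, so that the spread includes the treatment effects above. miR-451a was higher in liver by 8.14 on the log2 scale (adjusted p = 0.00713, Benjamini-Hochberg). With 5.56% of 180 miRNAs higher in liver by this edgeR test, it was the 1 member past the threshold of 0.05. miR-486a-5p and miR-486b-5p had a log2 difference of 7.11 (edgeR adjusted p = 0.0729), miR-144-3p one of 6.89 and miR-144-5p one of 6.75 (edgeR adjusted p = 0.0963 for both). Such differences depend on the prior count that edgeR adds, since hepatocytes were at or near 0. The mature members reached 10 counts in liver columns only, and both miR-144 strands in the acetaminophen liver column only. Without that column the miR-144 strands were not tested. In hairpin counts all 5 entries passed the edgeR test, where 6.22% of 498 hairpins were higher in liver. Like the mature members, these entries reached 10 counts in liver columns only, so higher in liver was the outcome open to them. In liver mir-451a and mir-451b had nearly equal counts, as did mir-486 and mir-3107, so the 5 calls are not independent. mir-451a was higher by 9.50 and mir-451b by 9.47 on the log2 scale (adjusted p = 0.00430 for both), mir-486 by 8.75 (0.00462), mir-3107 by 6.97 (0.0115) and mir-144 by 6.23 (0.0182). The call for miR-451a was lost without the hepatocyte column given acetaminophen and G-CSF (edgeR adjusted p = 0.122) and with all 12 columns in the fit (0.166). Without the acetaminophen liver column the log2 difference was 5.83, and leaving out other columns gave up to 9.13.

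The summed share of the members was 2.62% ± 3.41 in liver and 0.00750% ± 0.00993 in hepatocytes (SD, n = 3 columns each). Every liver column was above every hepatocyte column, and the two-sided exact permutation test gave p = 0.1, the smallest p that 3 against 3 columns allow. Among other lists, the leukocyte miRNAs miR-150-5p, miR-223-3p and miR-342-3p were also higher in liver (edgeR adjusted p = 0.0498 for each) and miR-155-5p was lower (0.0187), while 0 of 7 other red cell miRNAs tested passed the edgeR threshold. Of those 7, 0 had an unadjusted p under 0.05 either. miR-16-5p differed by -0.10 on the log2 scale.

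The number of hairpin counts per mature count differed among the members. mir-451 hairpins stood at 40.4 counts per mature miR-451a count in control liver (32.7 to 50.6), 9.13 with acetaminophen (8.60 to 9.71), 43.2 with G-CSF added (39.4 to 47.5) and 56.3 in control serum exosomes (48.2 to 66.2). Relative to its whole column this was 1.53, 1.62, 1.72 and 2.02 times. For miR-486, with both strands in the mature count, the same quotient was 1.03 to 1.13 times that of the column. For miR-144 it ran from 0.889 with acetaminophen to 2.98 in control liver, the latter on 2 mature counts. The open question of reads counted in both entries applies to the mir-451 and miR-486 quotients too.

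**Figure D5:**
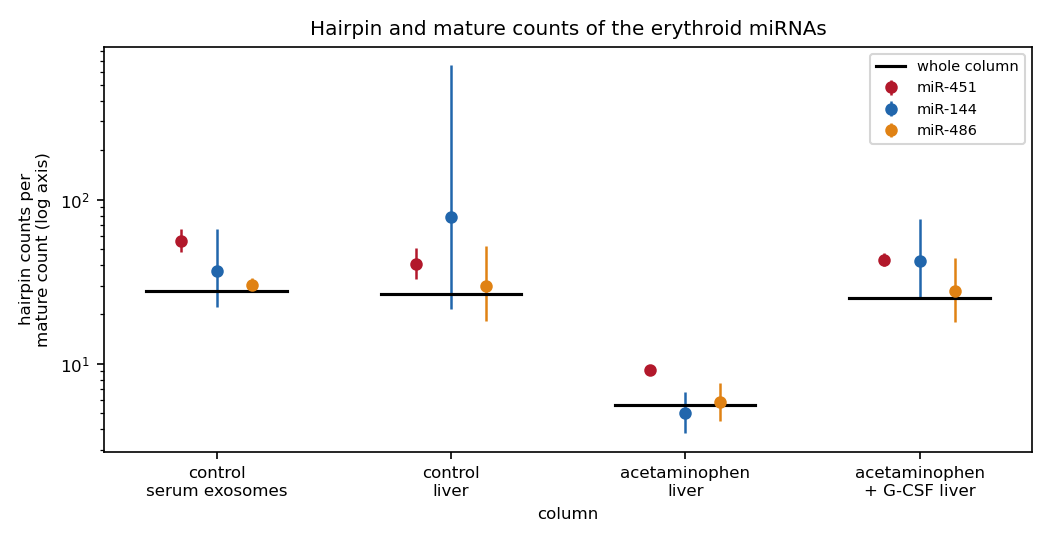
Hairpin counts per mature count (log axis) for each erythroid miRNA in the 4 columns that hold enough counts, with exact 95% intervals; black bars give the whole column. All values drop in acetaminophen liver with its column, from 26.5 to 5.65, and miR-451 lies above the bar in each column.

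Among miRNAs outside the members, those most like miR-451a across columns were sought by Pearson's r of log2(CPM + 10), where CPM is the count scaled to a common column total, over the 7 columns with at least 1000 mature counts. Of 178 miRNAs compared, miR-142a-3p came first (r = 0.952), miR-497a-5p had r = 0.917 and miR-199a-3p r = 0.901. The members themselves had r = 0.928 for miR-144-5p, 0.922 for miR-144-3p and 0.871 for both miR-486 entries. All of these had 0 counts in the 3 hepatocyte columns, which share culture and differ from liver in depth, so that each r rests on only 4 columns with counts. miR-497a-5p had 21, 14 and 11 counts in control, acetaminophen and acetaminophen plus G-CSF liver, and 2 in control serum exosomes. The acetaminophen column was the shallowest of these liver columns, with 19695 mature counts against 49330 and 43698.7. Raw counts therefore do not rank these columns by share.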

How the data were processed

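The member rule uses no measured value, but it, the marker lists and the comparisons were set with earlier results of these data known. RNA was isolated with a Norgen kit and libraries made with an Ion Torrent kit, per the labels' protocols. The deposited values are expected counts (estimated, not always whole), which were not scaled to depth, per the file headers. The aligner, annotation, genome build and treatment of reads that fit several entries are not given in the sources used. Where samples are not said to be separate animals or cultures, p-values measure only the spread between columns.

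Groups follow the treatment field of the labels. Scaling used TMM factors (edgeR 4.0.16) in liver and hepatocytes, after keeping entries with at least 10 counts in 1 column, and column totals in exosomes. Folds have exact conditional (Clopper-Pearson) 95% intervals, and a count of 0 was set to a floor of 3. Ratios used columns with at least 10 counts of both miRNAs together. Liver and hepatocytes were compared with edgeR's quasi-likelihood test on rounded counts (R 4.3.3), and DESeq2 1.42.0 was an alternative. Folds between separate libraries could not be fitted with instrument as a block, because columns combine both instruments. Named miRNAs were all members, the 3 most like miR-451a, and list members called or holding at least 10 counts. Scripts were tested on simulated data. Sequences are from RefSeq, and genome overlaps from the GRCm38 annotation.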

Additional observations from a re-analysis of the deposited data

Results flagged for a closer look

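Erythroid miRNAs stood in opposite directions in liver and serum exosomes of treated mice, and this difference was not tested, since each material has 1 column per condition. With acetaminophen against control, the log2 difference of miR-451a was 5.23 in liver and -1.85 in serum exosomes. For miR-486a-5p and miR-486b-5p, which share their counts, it was 3.70 in liver and -2.35 in serum exosomes. With G-CSF added, miR-451a differed from control by 2.43 in liver and -2.52 in serum exosomes. The low serum values are not particular to these miRNAs: the other red cell list went from 4.51% of control serum exosomes to 0 and 0.5 counts. Hairpin mir-486 was not called lower in serum with acetaminophen (0.566-fold, 0.271 to 1.04). The log2 values in serum were computed with 0 counts set to the floor of 3, in columns of 436 and 692 mature counts.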

How the results depend on the processing

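Of 75 alternative values for counts of members called and for ratios, 61 kept their direction and side of the threshold, as did 220 of 234 for single miRNAs. The number of members called in liver for G-CSF added against acetaminophen was 3 in place of 5 when scaled to miR-122-5p, a scaling chosen after seeing the data. For G-CSF added against control liver it was 1, and 2 with a count minimum of 5, 3 when scaled to miR-122-5p and 3 in hairpins. In serum exosomes with G-CSF added against control it was 3, and 5 in hairpins. For liver against hepatocytes it was 1, and 5 in hairpins, 0 with all 12 columns in the fit (2 members and 35 miRNAs at an unadjusted p under 0.05), and 0 to 1 with 1 column left out. DESeq2's Wald test called 1 member. For comparisons within a material, no share of all hairpins called is given beside the hairpin counts of members called. Over all miRNAs, edgeR called 10 higher and 5 lower in liver, DESeq2's test 15 and 18, the fit of 12 columns 0 and 0, and fits without 1 column 0 and 0 to 15 and 14. Size factors of DESeq2 in edgeR gave 5 and 2, and treatment as a term 7 and 3. In hairpins the log2 ratio of miR-144 to miR-451a reversed for acetaminophen against control (-0.71), G-CSF added against acetaminophen (0.22) and G-CSF added against control (-0.49). It passed the interval test for control serum exosomes against control liver (0.43) and acetaminophen liver (1.14), as did the miR-486 to miR-451a ratio for G-CSF added against acetaminophen (-0.24). The cause of these changes was not tested. No paired analysis was possible because the columns carry no replicate number or instrument. Depth limits miR-144 in control liver and all members in treated exosomes.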
